A study of Mus musculus with 8 samples.

Results

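Genes were compared for 5-hydroxymethylcytosine (5hmC) between mouse embryonic stem cells (ESCs) and adult brain. From each of the 2 libraries the 33000 nuclear peaks with the highest scores were kept, 66000 of the 948510 nuclear peaks that the 6 peak lists of the study hold. Peaks were laid over 22367 protein-coding genes of the mm9 genome. Each gene was described by the percent of its annotated span under a kept peak, and by the percent of the 2000 bp around its transcription start site (TSS ± 1 kb) under one.

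The ESCs were of the line E14, grown without any knockdown, and the brain was taken from C57BL/6 mice at 8 weeks of age. A line is 1 source of cells, and a whole brain is a mixture of neurons and glia, whose 5hmC the library averages. The study further profiled E14 cells carrying a short hairpin against GFP (shGFP) or against the Polycomb subunit Suz12 (shSuz12), embryonic fibroblasts (MEFs) of C57BL/6, labelled embryonic day 11 although the methods of the study give a later day, and C57BL/6 liver at 8 weeks. With 1 library for ESCs and 1 for brain, no difference between them has a replicate error, so no test was made and each difference describes these libraries. The shGFP library is set beside them as a second ESC level. Labels could not be checked against cell-type markers, since a peak of 5hmC is not a measure of expression.

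5hmC is made from 5-methylcytosine by the Tet enzymes, mostly at CpG dinucleotides, and is a step on a route of DNA demethylation. It is abundant in neurons, where it accumulates over gene bodies, and is found in ESCs, which express Tet1 and Tet2, at promoters and enhancers of low to intermediate CpG content. In GLIB, the method used here, 5hmC is glucosylated, the sugar is oxidised and biotinylated, and the DNA that bears it is pulled down and sequenced.

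Sequences of 5 places show the kind of DNA under the largest differences described here, taken from the mm9 genome, 5′ to 3′ on the strand of the gene, with CpG dinucleotides in capitals. The first pair are the 250 bases upstream of the TSS of Stra8 (chr6:34869913-34870162, plus strand) and of Ddx4 (chr13:113442519-113442768, minus strand), both germ line genes whose promoters lay under ESC peaks. The others are the central 250 bases of the peak with the highest score over 3 genes. In Jak3, the place was chr8:74209442-74209691 on the plus strand, under an ESC peak, and 76 of its bases are exonic. The peaks of the brain were over introns of Igf1r (chr7:75341214-75341463, plus strand) and of Sav1 (chr12:71082763-71083012, minus strand).
Stra8 promoter: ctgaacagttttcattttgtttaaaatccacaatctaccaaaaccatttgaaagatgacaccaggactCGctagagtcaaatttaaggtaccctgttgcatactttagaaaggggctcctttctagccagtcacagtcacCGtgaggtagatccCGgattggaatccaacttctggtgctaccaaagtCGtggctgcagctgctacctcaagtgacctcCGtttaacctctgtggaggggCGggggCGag
Ddx4 promoter: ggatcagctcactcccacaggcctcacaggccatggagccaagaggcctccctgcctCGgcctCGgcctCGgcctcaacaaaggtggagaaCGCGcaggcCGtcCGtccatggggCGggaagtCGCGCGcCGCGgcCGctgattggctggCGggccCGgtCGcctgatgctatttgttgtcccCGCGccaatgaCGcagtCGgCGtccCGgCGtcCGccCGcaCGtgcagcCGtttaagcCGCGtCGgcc
Jak3 ESC peak: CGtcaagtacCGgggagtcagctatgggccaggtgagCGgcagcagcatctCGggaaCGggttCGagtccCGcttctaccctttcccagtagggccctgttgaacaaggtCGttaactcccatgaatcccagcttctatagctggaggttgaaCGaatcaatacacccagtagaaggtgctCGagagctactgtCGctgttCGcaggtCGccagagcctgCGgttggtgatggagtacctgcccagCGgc
Igf1r brain peak: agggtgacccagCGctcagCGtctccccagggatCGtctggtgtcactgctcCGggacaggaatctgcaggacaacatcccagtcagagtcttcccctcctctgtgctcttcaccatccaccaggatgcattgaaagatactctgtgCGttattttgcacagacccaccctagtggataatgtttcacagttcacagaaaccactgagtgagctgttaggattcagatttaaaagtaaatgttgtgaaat
Sav1 brain peak: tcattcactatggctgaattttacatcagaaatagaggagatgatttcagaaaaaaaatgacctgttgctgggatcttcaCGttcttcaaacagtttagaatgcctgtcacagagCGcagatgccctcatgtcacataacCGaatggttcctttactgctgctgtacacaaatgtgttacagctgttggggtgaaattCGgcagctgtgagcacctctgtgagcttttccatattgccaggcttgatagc
The Ddx4 stretch held 31 CpGs and the Stra8 stretch 7. The centre of the ESC peak in Jak3 held 15 CpGs, and the centres of the brain peaks in Igf1r and Sav1 held 5 and 4. Kept ESC peaks had a median of 1.99 CpGs per 100 bp and a GC content of 51.2%, against 1.59 and 48.0% in brain peaks, 2.03 and 50.5% in shGFP peaks and 0.834 and 41.8% over the nuclear chromosomes. Brain peaks that overlapped no kept ESC peak were the poorest in CpGs, with a median of 1.46 per 100 bp, while those that overlapped one had 1.94.

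The lists were cut at very different scores, which touches every result below. The score of a peak is −10 log10 of the p-value that the peak caller gave it. Before ranking, the lowest score in the full list was 80 in ESCs and 30 in brain, so a gene with no peak at any rank was held to a stricter limit in ESCs than in brain. The lowest kept score was 391 in ESCs, 80.2 in brain and 138 in the shGFP library, and the kept peaks covered 62.02, 66.32 and 46.67 Mb. Chromosome 8 held 13.9% of the kept ESC peaks, 12.3% of shGFP peaks and 12.5% of shSuz12 peaks, but 6.23% in brain, 6.46% in MEFs and 6.38% in liver. Of the genes, 4.84% lie on it. Chromosome X, with 4.17% of genes, held 0.073% of ESC and 0.030% of brain peaks.

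The clearest difference between ESCs and brain lay at promoters. In ESCs, 2395 promoter windows were under a kept peak, 10.7% of all (exact binomial 95% interval 10.3 to 11.1%, counting error only), and in brain 1216, or 5.44% (5.14 to 5.74%). The shGFP library had 10.8%, liver 10.6% and MEFs 5.24%. A mean of 5.20% of a promoter window was covered in ESCs, 5.23% in the shGFP library and 1.95% in brain. Both libraries had a peak at 537 promoters, ESCs alone at 1858 and brain alone at 679. A difference of at least 25 percentage points of the window, or 500 bp, was called: 1463 promoters (6.54%) were higher in ESCs and 387 (1.73%) in brain. With the shGFP library in place of ESCs these numbers were 1646 and 456, so that the share of calls in the ESC direction moved only from 79.1% to 78.3%.

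At the TSS itself, 5.05% of genes were under a kept ESC peak, 5.65% under a shGFP peak and 1.35% under a brain peak. In brain the TSS was the lowest point of the profile, and at 2000 bp downstream the value was 4.99%. ESCs reached 7.13% there and had no dip at the TSS. Further along genes of at least 10 kb, cut into 20 equal parts, coverage was higher toward the end of the gene in both, going from 4.90% of bases in the first part to 11.7% in the last in ESCs and from 2.67% to 8.89% in brain. Of the kept peaks, 3.75% in ESCs and 1.18% in brain had their midpoint in a promoter window. In a separate split that did not set promoter windows apart, 19.2% and 12.1% had it in an exon, and 50.9% and 66.7% in an intron.

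**Figure D1:**
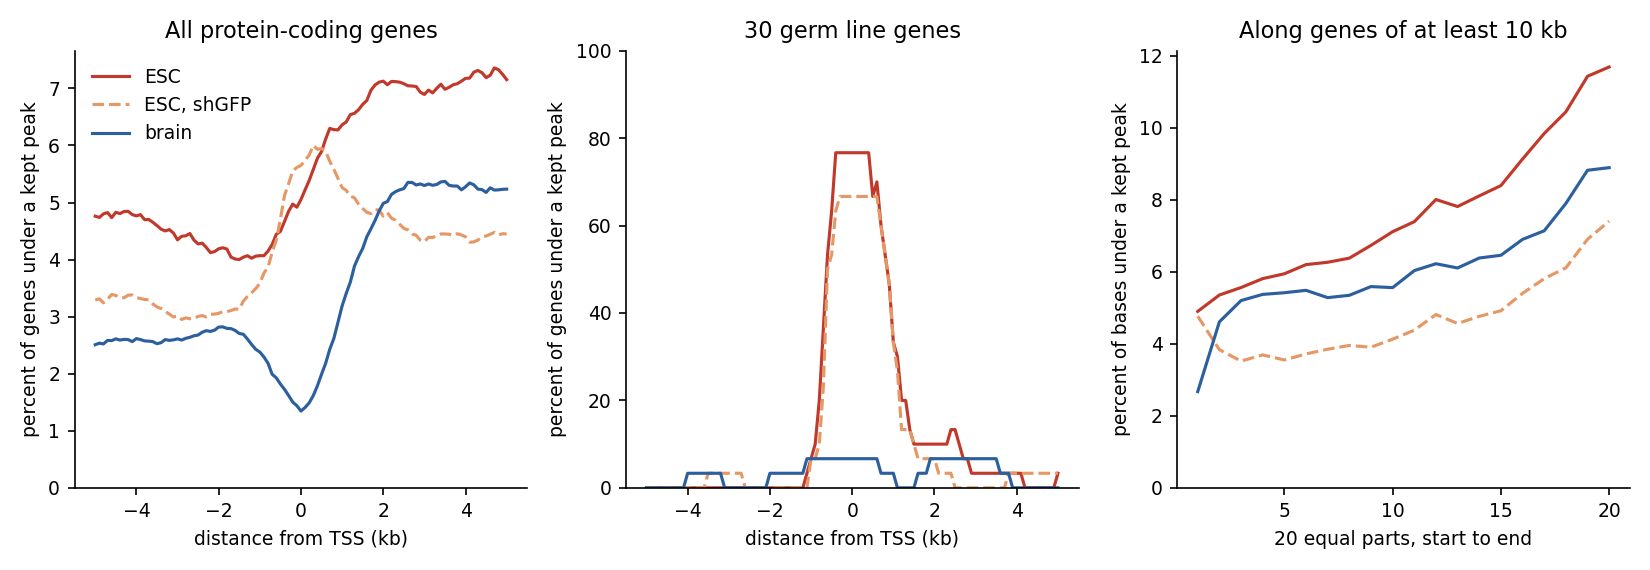
Percent of genes under a kept 5hmC peak by distance from the TSS (kb), for all 22367 protein-coding genes (left) and for 30 germ line genes (middle), and percent of bases under a kept peak along 20 equal parts of the 13506 genes of at least 10 kb (right). Red, ESC; orange dashes, ESC with shGFP; blue, brain. Brain falls to 1.35% at the TSS of all genes, where ESCs stand at 5.05%, and the germ line genes reach 76.7% at the TSS in ESCs against 6.67% in brain.

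Germ line genes stood furthest apart at promoters of the 32 gene lists described. They encode proteins of meiosis, of the piRNA pathway that silences transposons in the germ line, and of the egg coat, and many are known to be shut by promoter methylation in somatic cells. Over 30 such genes the mean percent of the promoter window covered was 59.2 in ESCs, 52.9 in the shGFP library, 29.7 in the shSuz12 library, 6.04 in brain, 4.59 in liver and 3.54 in MEFs. A kept ESC peak touched 24 of the 30 windows, a shGFP peak 22 and a brain peak 2. By the call of 25 points, 21 (70.0%) were higher in ESCs and 1 was higher in brain, with a median difference of 72.35 points, against 6.54% and 1.73% of all genes and a median of 0.

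The peaks sat on the start site. At the TSS, 76.7% of the 30 genes were covered in ESCs and 66.7% in the shGFP library, at 2000 bp upstream none in either, and at 2000 bp downstream 10% and 6.67%. The rest of these genes was far less covered, with a mean of 9.33% of the span in ESCs and 3.16% in brain.

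Stra8, which retinoic acid switches on as germ cells enter meiosis, had its whole window under an ESC peak and none under a brain peak, and 19.6% under a shGFP peak. Ddx4, the Vasa RNA helicase of germ cells, had 90.25% covered in ESCs, 80.1% in the shGFP library and 0 in brain. Figla, a transcription factor of the oocyte, had 96.8%, 91.6% and 0. For these genes the window was bare of any brain peak, also of peaks below the rank limit. Tdrd1, a Tudor protein of the piRNA pathway, had 95.2%, 80% and 0, and a brain peak of lower rank covered 64.7% of its window. Sycp1, of the synaptonemal complex that joins paired chromosomes, and Hormad1, of meiotic chromosome axes, had 82.5% and 74.0% in ESCs and 0 in brain.

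Not all of the list did so. Dazl, an RNA-binding protein of germ cells, was covered in both, at 70.4% in ESCs, 82.8% in the shGFP library and 81.3% in brain. Sycp2, a component of the synaptonemal complex, had 73.5% in ESCs, 67.9% in the shGFP library and the whole window in brain, and is the 1 gene called higher in brain. Dmc1, Rec8, Spo11, Tdrd6, Zp2 and Zp3 had no kept ESC peak in the window, though Dmc1, Tdrd6 and Zp3 had 86.7%, 88.0% and 72.1% under a kept shGFP peak. With every deposited peak, 27 of the 30 windows were touched in ESCs and 14 in brain, so the brain list holds weaker peaks at many of them, and the mean covered was 65.0% and 24.1%.

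The letters of the E-box CACGTG, which reads the same on both strands, were searched in the 250 bases upstream of each TSS. They were present in 14 of the 30 germ line genes (46.7%), in 6.52% of all promoters, in 9.36% of those called higher in ESCs and in 6.20% of those higher in brain. Ddx4 and Tdrd1 held it and Stra8 and Figla did not. Of the 14 genes with it 13 were called higher in ESCs, and of the 16 without it 8 were. TCCCGC, the core of the E2F site, on either strand, was in 20% of germ line promoters and 20.4% of all. The observed over expected CpG ratio from 700 bp upstream to 200 bp downstream had a median of 0.523 in germ line promoters, 0.367 in all promoters higher in ESCs, 0.403 in those higher in brain and 0.486 in all.

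Among the lists higher in ESCs at promoters were several of genes that act in other tissues. Of 37 muscle contractile genes, 8 (21.6%) were called higher in ESCs and 1 (2.70%) in brain, against 6.54% and 1.73% of all genes. A mean of 20.9% of the window was covered in ESCs, 19.7% in the shGFP library and 5.33% in brain. Des, the intermediate filament desmin of muscle, was wholly covered in both ESC libraries and had 0 under kept brain peaks. Brain peaks of lower rank covered 61.85% of its window. Acta1, skeletal α-actin, had 98.95% in ESCs, 51.8% in the shGFP library and 0 in brain. Of 50 keratin genes, which form the filaments of epithelia, 11 (22.0%) were higher in ESCs and 1 in brain. Krt17 had 82.05% in ESCs and 68.7% in the shGFP library, and 0 in brain.

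Lymphoid and myeloid genes had 6 of 35 promoters (17.1%) higher in ESCs and 1 (2.86%) in brain, against 6.54% and 1.73% of all genes. A mean of 11.9% of the window was covered in ESCs and 1.39% in brain. The shGFP library had 5.00%, near its 5.23% over all genes, so the second ESC library did not share the excess. Cd8b1 and Zap70 had 83.45% and 80.95% in ESCs and 0 in the shGFP library. Cd79a, a chain of the B cell receptor, was covered whole in ESCs, at 62.85% in the shGFP library and at 0 in brain. Of 36 genes for liver plasma proteins, 6 (16.7%) were higher in ESCs and 1 (2.78%) in brain. F2, prothrombin, had its whole window covered in ESCs and 0 under kept brain peaks, though brain peaks of lower rank covered 57.95%. By contrast Ttr, the thyroxine carrier that the choroid plexus of the brain also makes, had 0 in ESCs and 83.8% in brain.

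The 3 lists of lineage and patterning regulators had no kept brain peak in any promoter window, where 5.44% of all promoters had one. The signalling genes of development did have some. Of 51 Fgf and Bmp entries, 8 windows had a kept brain peak, with 5 (9.80%) called higher in ESCs and 4 (7.84%) in brain. For 31 genes of the Gata, T-box and endoderm factors, a mean of 13.7% of the window was covered in ESCs, 21.6% in the shGFP library and 0 in brain. Of these, 7 (22.6%) were called higher in ESCs, against 6.54% of all genes. Mesp2, a factor of somite formation, had 75.3% in ESCs, 81.6% in the shGFP library and 0 in brain. A brain peak of lower rank covered 62.05% of its window. Of the 40 Hox genes, which set position along the body axis, 3 promoters (7.50%) were higher in ESCs, near the 6.54% of all promoters, and none had a brain peak in its window or span at any rank. The ESC libraries differed over them, with a mean of 7.39% of the span in ESCs and 23.1% in the shGFP library. The 58 neural and patterning regulators had 2.98% and 14.2%, against 1.55% in brain.

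Pluripotency factors had no kept brain peak over any of 31 spans or promoters. Few are found in brain over all genes too, where 67.2% of spans had none and 5.44% of promoters had one. In ESCs, 7 spans (22.6%) and 3 promoters (9.68%) were called higher, shares near the 19.9% and 6.54% of all genes. Means were 5.01% of the span and 8.74% of the window, and the shGFP library had 6.52% and 13.6%. Lefty2, an inhibitor of Nodal signalling, was covered over its whole window in ESCs and 68.0% of it in the shGFP library. Esrrb, an orphan nuclear receptor of the naive state, had 78.6% and 73.1%, and 15 kept ESC peaks over its 160.5 kb. Dnmt3l, a cofactor of the de novo DNA methyltransferases, had 88.95% and 44.65%. Pou5f1, which encodes Oct4, had no kept peak in either and no ESC peak at any rank.

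**Figure D2:**
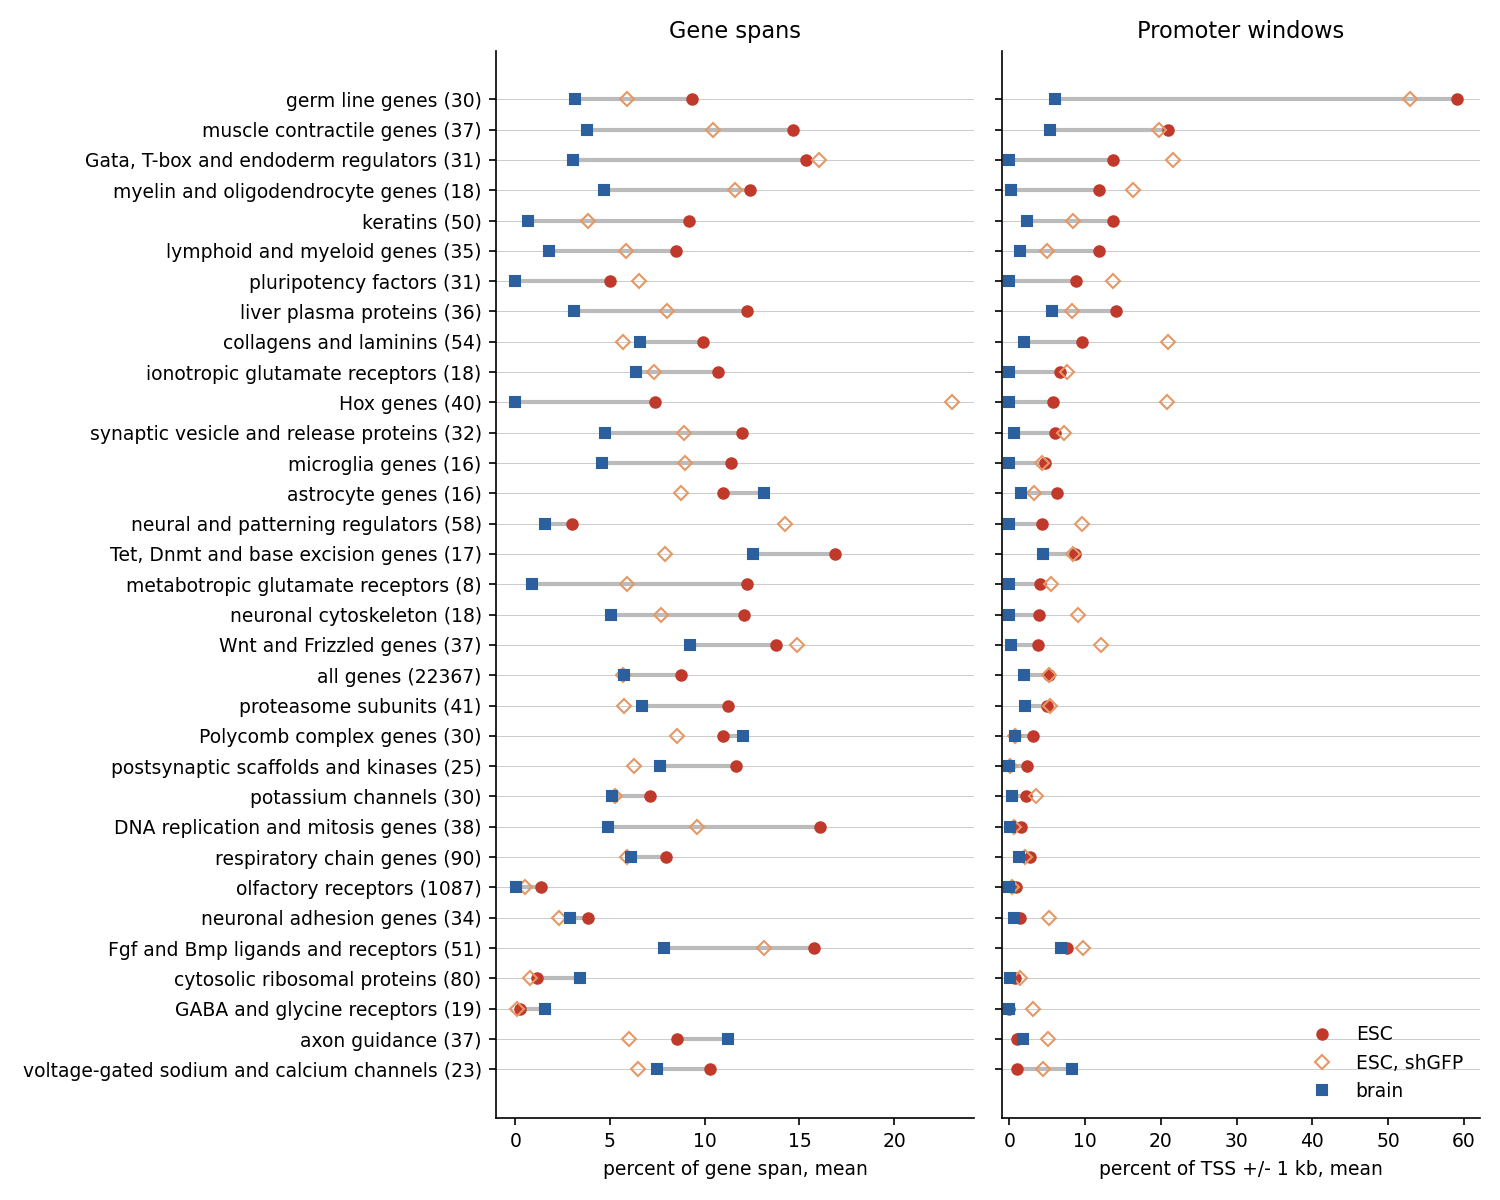
Mean percent of the gene span (left) and of the TSS ± 1 kb window (right) under a kept peak for each of 32 gene lists and for all genes, ordered by the promoter difference; numbers of genes in brackets. Red circles, ESC; open diamonds, ESC with shGFP; blue squares, brain. The germ line list stands apart at promoters, with 59.2% in ESCs and 6.04% in brain, and Hox genes and neural regulators show the widest gap between the ESC libraries over spans.

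Promoters higher in brain were fewer and held no list to the same extent. Of the 387, 36.4% were under a kept liver peak, 21.4% under a MEF peak and 15.0% under a shGFP peak, against 10.6%, 5.24% and 10.8% of all promoters. The 1463 promoters higher in ESCs had a shGFP peak in 67.9% of cases, a liver peak in 22.4% and a MEF peak in 16.5%. Voltage-gated sodium and calcium channels had 3 of 23 entries (13.0%) higher in brain and none in ESCs, against 1.73% and 6.54% of all genes. Of the 3, however, 2 are separate annotation entries of Scn8a, a sodium channel of neurons. ESC peaks of lower rank covered 77.8% and 63.15% of those windows, against 77.1% and 75% in brain, and the mean difference of the list, 7.26 points toward brain, turned to 0.28 points toward ESCs with 66000 peaks and 7.17 with a score of at least 80. Cacna1c, an L-type calcium channel, had 38.9% of its window under a brain peak and no ESC peak there at any rank.

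Among single promoters, 73 were covered whole in ESCs and bare in brain, and 9 the reverse. The rule for naming gave Insl3, a hormone of testis descent, with 96.8% in the shGFP library, Aqp6, a water channel of the kidney, with 100%, Acacb, an acetyl-CoA carboxylase of muscle and heart, with 98.8%, and Pkp3, a desmosome protein of epithelia, with 100%. It also gave Vill, Tnfrsf13c, the BAFF receptor of B cells, and Cldn14, a tight junction protein, with 62.7%, 27.2% and 16.8%, and Fam83h with 0 in that library. All 8 were at 100% in ESCs and 0 under kept brain peaks. Brain peaks of lower rank covered 51.35% of the window of Acacb, 44.6% of Vill, 43.9% of Tnfrsf13c and 24.55% of Aqp6. None of any rank lay in the windows of Insl3, Fam83h, Cldn14 and Pkp3. Insl3 lies on chromosome 8 inside the span of Jak3, itself among the genes named by span, and the ESC peak with the highest score over Jak3 covers its window, so the pair are not separate cases.
In the direction of brain, Tagap, Tas1r3, a taste receptor subunit, and Angptl7 had the whole window under a brain peak. So did Esam, an adhesion protein of endothelial cells. Kept ESC peaks covered 0 of these windows, and ESC peaks of lower rank 58.4% for Angptl7 and 32.4% for Esam. No ESC peak of any rank lay in those of Tagap and Tas1r3. Ankrd23 had the whole window in brain and 0.35% in ESCs. Trpm6, a magnesium channel of kidney and gut, and Oit1 had 98.15% and 97.45% in brain and 0 in ESCs. Trpm6 was under a shGFP peak over 73.25% of the window, and ESC peaks of lower rank covered 89.0% of it. Its 0 thus holds for kept ESC peaks only.

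Over whole genes the difference was less steady. A mean of 8.73% of the span was covered in ESCs and 5.76% in brain, but the shGFP library had 5.71%. By a difference of at least 5 percentage points, 4450 genes (19.9%) were higher in ESCs and 2745 (12.3%) in brain, which puts 61.8% of the calls on the ESC side. With the shGFP library, 3110 were higher in ESCs and 3692 in brain, which is 45.7%. With a common minimum score of 80, which leaves all 171865 nuclear ESC peaks against 33202 of brain, 10590 and 896 were called, or 92.2%. Neither library had a peak over 11638 genes, ESCs alone over 3395, brain alone over 2074 and both over 5260. Both measures called 1065 genes higher in ESCs and 201 higher in brain.

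Gene length separated the directions. Genes higher in ESCs had a median span of 14089.5 bp and those higher in brain 29852 bp, against 15427 bp for all. Of the former 2.54% spanned over 100 kb and of the latter 19.96%, against 10.7% of all. In genes of 10 to 20 kb, ESCs covered a mean of 11.8%, the shGFP library 6.998% and brain 6.47%, and 34.3% were higher in ESCs against 12.6% in brain. In the 954 genes of 200 kb or more, ESCs covered 1.89%, the shGFP library 1.53%, brain 4.91%, MEFs 3.905% and liver 3.65%. There 20 genes (2.10%) were higher in ESCs and 206 (21.6%) in brain. Both ESC libraries were lower in the longest genes than brain, liver and MEFs, while in genes under 20 kb both were higher than brain.

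**Figure D3:**
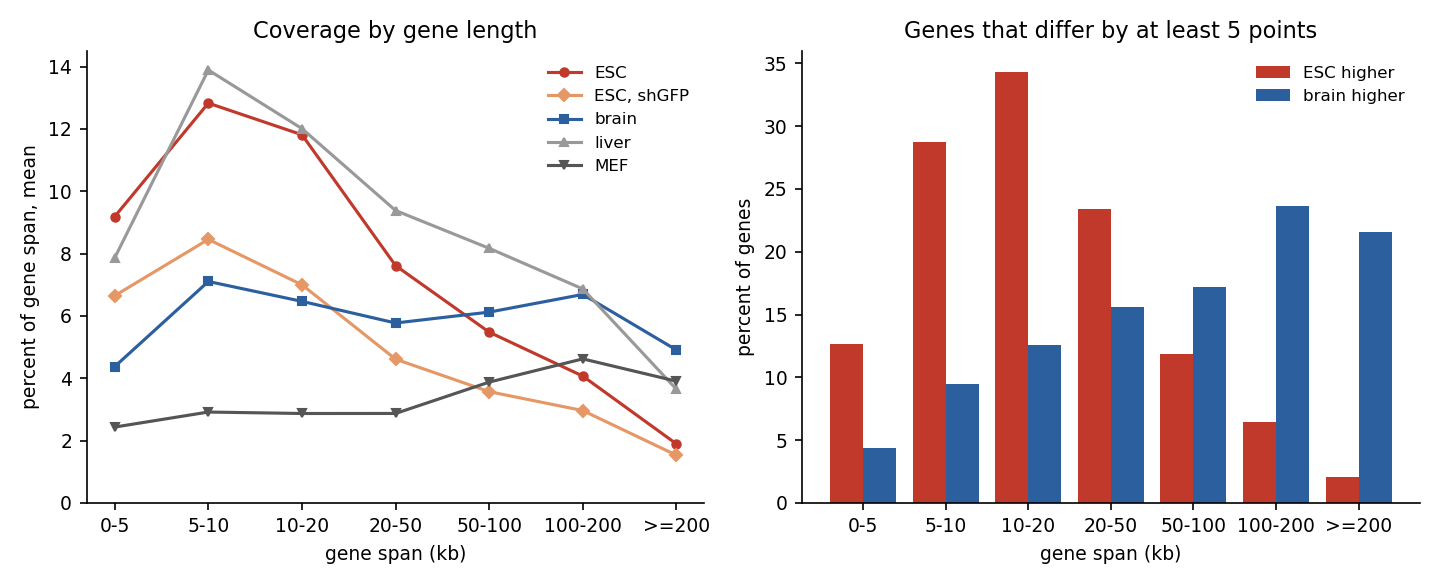
Mean percent of the gene span under a kept peak by gene span (left; red ESC, orange ESC with shGFP, blue brain, light grey liver, dark grey MEF) and the percent of genes in each class that differ by at least 5 points (right; red bars higher in ESC, blue bars higher in brain). From the class of 50 kb on, brain lies above both ESC libraries, ending at 4.91% against 1.89% and 1.53%.

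Of the genes named by span, the longest was Igf1r, the receptor of insulin-like growth factor 1. Over its 273.8 kb lay 54 kept brain peaks and 4 ESC peaks, which covered 51.05% and 2.45%, and shGFP peaks covered 3%. ESC peaks of lower rank brought its coverage to 19.9%, still below the 66.4% of all brain peaks. Sav1, a scaffold of the Hippo pathway, had 73.4% of its 22.0 kb under brain peaks and 0 under kept peaks of both ESC libraries. Il4ra, the α chain of the interleukin 4 receptor, had 63.9% in brain, 0 under kept ESC peaks and 3.43% in the shGFP library. Klf11, a transcription factor, had 56.9% in brain and 0 under kept peaks of both ESC libraries. Usp19, a deubiquitinase, had 80.3% in brain and 23.3% in ESCs. Its full ESC list covered 70.7%, so there the gap lies mostly in the rank of the ESC peaks. Fam160b1, Cdc42ep3, an effector of Cdc42, and Necap2, of clathrin-coated vesicles, had 63.3%, 58.9% and 49.1% in brain and 8.30%, 7.34% and 0 under kept ESC peaks. ESC peaks of every rank covered 8.91% of Sav1, 19.86% of Il4ra and 24.99% of Klf11. For Fam160b1, Cdc42ep3 and Necap2 they covered 34.27%, 29.30% and 34.54%. Brain peaks of every rank covered more of each of these genes, from 58.9% of Cdc42ep3 to 78.87% of Fam160b1.

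In the ESC direction, Jak3, the kinase of the cytokine receptors of lymphocytes, had 85.0% of its 14.3 kb under ESC peaks, 85.4% under shGFP peaks and 0 under brain peaks. A brain peak of lower rank covered 7.67%. Slc11a1, a metal ion transporter of macrophages, had 81.0%, 53.3% and 0. Abhd16a had 89.7% in ESCs, 37.0% in the shGFP library and 13.4% in brain. Scd2, a fatty acid desaturase, had 72.0% in ESCs, 15.2% in the shGFP library and 0 in brain. Irf8, a factor of myeloid and B cells, had 68.1%, 38.6% and 0. Tinagl1, Osgin1 and Eif4ebp1, a repressor of translation, had 68.85%, 71.0% and 71.4% in ESCs and 0 under kept brain peaks. With brain peaks of every rank, coverage was 54.8% for Irf8, 50.7% for Tinagl1, 40.6% for Osgin1 and 14.0% for Eif4ebp1. It was 18.2% for Slc11a1, 46.6% for Abhd16a and 6.56% for Scd2. ESC peaks of every rank covered 78.3% of Irf8, 68.85% of Tinagl1 and 84.2% of Osgin1. Jak3, Irf8, Osgin1 and Eif4ebp1 lie on chromosome 8, as did 11.6% of all genes higher in ESCs and 2.30% of those higher in brain, and the part of that chromosome in their values was not tested. Without chromosome 8 the calls were 4241 and 2648.

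**Figure D4:**
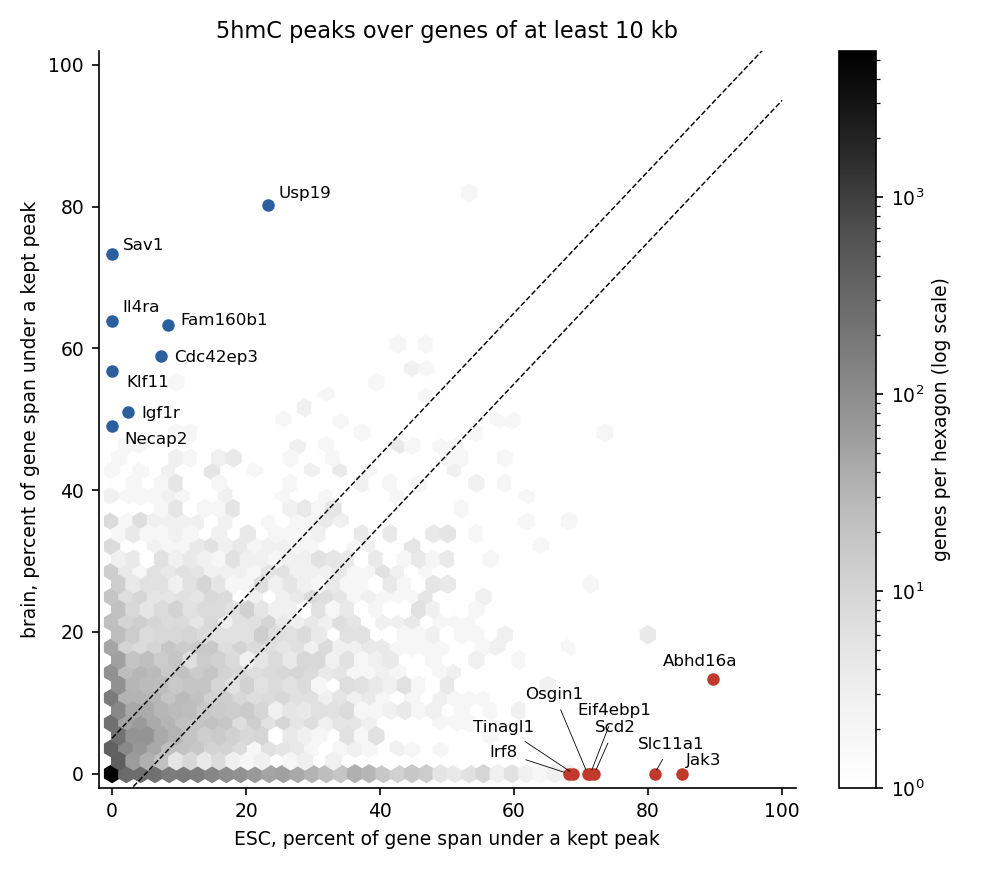
Percent of the gene span under a kept peak in ESCs (x axis) and brain (y axis) for genes of at least 10 kb, as a density of genes on a log grey scale, with lines at a difference of 5 points. The named genes are coloured, red for higher in ESCs and blue for higher in brain. Most genes lie near 0 in both, and Jak3 at 85.0% and Sav1 at 73.4% stand on opposite axes.

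**Figure D5:**
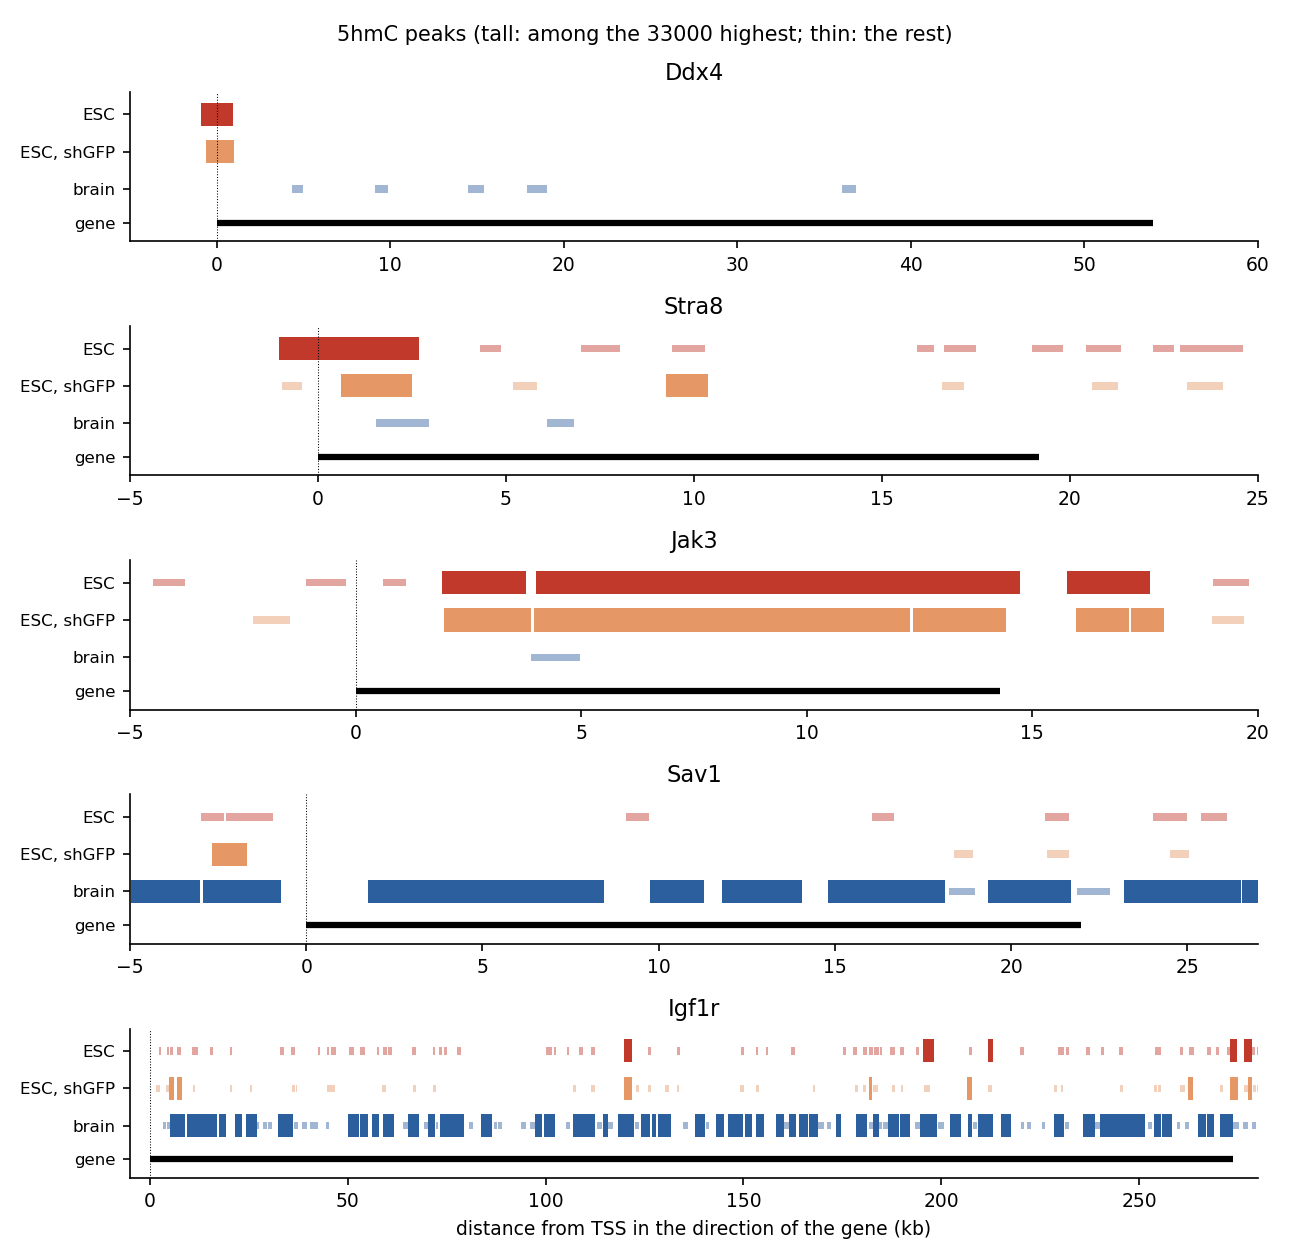
Peaks of the ESC, shGFP and brain libraries near 5 genes, by distance from the TSS in kb; tall bars are kept peaks, thin pale bars are peaks of lower rank, and the black bar is the gene. Ddx4 and Stra8 have an ESC peak over the TSS and no brain peak there, Jak3 is covered in both ESC libraries, and 54 kept brain peaks lie over Igf1r.

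Among 17 genes of the Tet enzymes, the DNA methyltransferases and base excision repair, 13 had a kept ESC peak and 11 a kept brain peak in the span. Of all genes, 61.3% had no kept ESC peak in the span and 67.2% no kept brain peak. Tet3, the Tet enzyme of neurons and of the zygote, had 33.7% of its span under 11 brain peaks, 10.1% under ESC peaks and 6.97% under shGFP peaks. Tet1 had 9.62% in ESCs, 4.79% in the shGFP library and 7.15% in brain, and Tet2 7.23%, 0 and 2.48%. Dnmt1, the maintenance methyltransferase, had 55.9% in ESCs and 10.25% in brain, but 13.5% in the shGFP library. Uhrf1, which brings Dnmt1 to replicated DNA, had 42.9%, 0 and 5.07% in the same order. Dnmt3a, a de novo methyltransferase, had a brain peak over 47.2% of its promoter window and no ESC peak there at any rank. This list had a mean of 16.9% in ESCs, 12.6% in brain and 7.88% in the shGFP library, so their order reversed with the ESC library used.
The 30 genes of the Polycomb complexes had 11.0% in ESCs, 8.54% in the shGFP library and 12.04% in brain, with 4 higher in ESCs and 6 in brain. Phc2, of Polycomb repressive complex 1, had 7.49% in ESCs and 31.8% in brain. Cbx7, the chromobox protein of that complex in ESCs, had 81.6% of its promoter window covered in ESCs, and 0 in brain and in the shGFP library.

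Genes of DNA replication and mitosis were higher in ESCs over their bodies. Of 38 genes, 17 (44.7%) were called higher in ESCs and none in brain, against 19.9% and 12.3% of all genes, with means of 16.1% in ESCs, 9.604% in the shGFP library and 4.92% in brain. Gins2, of the replicative helicase, had 85.8% in ESCs, 57.05% in the shGFP library and 25.5% in brain. Aurkb, a mitotic kinase, had 57.2%, 49.8% and 0. Brain peaks of lower rank covered 41.2% of it. Their promoters had little 5hmC in any library, with a mean of 1.58% of the window in ESCs and 0.06% in brain.

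Neuronal genes did not share a direction. Synaptic vesicle and release genes were higher in ESCs, 11 of 32 (34.4%) against 2 (6.25%) in brain, where all genes had 19.9% and 12.3%. The mean percent of the span was 11.97% in ESCs, 8.93% in the shGFP library and 4.76% in brain. Dnm1, the dynamin of synaptic vesicle recycling, had 45.9% in ESCs, 22.5% in the shGFP library and 0 in brain. Snap25, a SNARE protein, had 70.5% of its promoter window covered in ESCs, 26.9% in the shGFP library and no brain peak there at any rank. The 8 metabotropic glutamate receptors had means of 12.2%, 5.92% and 0.88%, but the median difference between ESCs and brain was 0.42 points. Of the 8, 3 (37.5%) were called higher in ESCs and none in brain. Grm2, 1 of the 3, had 45.2%, 19.8% and 0.
Of 37 axon guidance genes, 8 (21.6%) were higher in brain, against 12.3% of all genes, and 3 in ESCs, with means of 11.2% in brain, 8.53% in ESCs and 6.03% in the shGFP library. With a score of at least 80 the mean difference turned to 6.51 points toward ESCs. Sema6a, a semaphorin, had 39.6% in brain, with 20 peaks, and 1.47% in ESCs. Nrp2, a semaphorin receptor, had 29.2% in brain under 17 peaks, 0 in ESCs and 4.19% in the shGFP library. ESC peaks of lower rank covered 24.6% of it. Unc5b, a netrin receptor, stood on the other side with 52.7% in ESCs, 34.8% in the shGFP library and 19.5% in brain. Cacna1c had 44 brain peaks over its 603.9 kb, 14.2% of the span, against 4 and 0.94% in ESCs. Axon guidance genes have a median span of 188450 bp, synaptic vesicle genes 62293 bp and the replication list 15871.5 bp.

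Lists of glial and microglial genes differed in direction. Of 18 myelin and oligodendrocyte genes 8 (44.4%) were higher in ESCs and none in brain, against 19.9% and 12.3% of all genes. Their means were 12.4% in ESCs, 11.6% in the shGFP library and 4.68% in brain. Sox10, the factor of oligodendrocytes, had 91.5% of its window covered in ESCs, all of it in the shGFP library and 0 in brain. The 16 astrocyte genes had 4 higher in ESCs and 5 in brain, with means of 11.0% in ESCs, 8.77% in the shGFP library and 13.1% in brain, an order that turned with 66000 peaks, a score of at least 80 or 1 kb around each midpoint. Apoe, the main apolipoprotein of astrocytes, had 60.1% of its span in brain and no kept peak in either ESC library, and Aldoc, an aldolase of astrocytes, had 63.1% in ESCs, 15.8% in the shGFP library and 0 in brain. Of 16 microglia genes, 6 (37.5%) were higher in ESCs and 1 (6.25%) in brain, with means of 11.4%, 8.98% in the shGFP library and 4.60% in brain. Tmem119, a microglial marker, had 79.4% in ESCs, 73.2% in the shGFP library and 0 under kept brain peaks. Brain peaks of lower rank covered 47.3% of it.

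Among the remaining lists, 41 proteasome subunits had 11.2% of the span in ESCs, 5.75% in the shGFP library and 6.67% in brain, so their order depended on the ESC library. The 80 cytosolic ribosomal protein genes had 1.14% of the span in ESCs, 0.80% in the shGFP library and 3.42% in brain. By the call, 1 (1.25%) was higher in ESCs and 7 (8.75%) in brain, both below the 19.9% and 12.3% of all genes. Rpl34 had 57.5% in brain and no ESC peak at any rank. Of 1087 olfactory receptor genes, 16 (1.47%) were higher in ESCs and none in brain, also below those shares, and 18 had a kept ESC peak anywhere in the span. Among genes the study took up individually, Alb and Eef1a1 had no kept peak in either. Kdr, a VEGF receptor, had 40.1% of its promoter window under a brain peak and 0 in ESCs. Over its span the order was the other way, with 3.78% in ESCs, 5.45% in the shGFP library and 0 in brain. With every deposited peak the span of Kdr had 11.75% in ESCs and 16.7% in brain. Cdc25a, a phosphatase of the cell cycle, had 11.99% of its span in ESCs, 5.95% in the shGFP library and 0 in brain.

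The peaks themselves overlapped in part. Of the kept ESC peaks, 32.0% shared at least 1 base with a kept brain peak and 58.7% with a kept shGFP peak. Of the kept brain peaks, 31.9% met a kept ESC peak, 24.97% a shGFP peak, 35.5% a liver peak and 28.7% a MEF peak. Against the full list of the other library, the shares were 67.3% for ESC peaks and 69.2% for brain peaks. A gene that is bare among the kept peaks is thus often not bare in the full list. Of the 4450 genes higher in ESCs, 733 (16.5%) had no brain peak of any rank, and of the 2745 higher in brain 135 (4.92%) had no ESC peak. At promoters, 784 of 1463 (53.6%) and 108 of 387 (27.9%) were bare in the other full list. When all peaks were used, 86.4% and 78.1% of the span calls and 80.7% and 53.2% of the promoter calls were still past the threshold in the same direction.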

How the data were processed

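5hmC was profiled by GLIB precipitation and sequencing in 6 libraries, of which the ESC and brain peak lists were compared, and 2 RNA-Seq samples were not analysed here. Per the labels and the methods of the study, the authors aligned reads to mm9 with Bowtie 0.12.7 after CASAVA 1.8, retained hits that were unique, merged redundant reads, and used MACS 1.4.1 for the peaks. The control and threshold of the calls are not given in the sources used here. The deposited score of a peak (column 5) is −10 log10 of its p-value and depends on depth, which the lists do not give, so precision is unknown beyond the binomial intervals of shares.

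Peaks on nuclear chromosomes were ranked by score within a library and 33000 kept, merged, and intersected with 22367 protein-coding genes of GENCODE M1 (Python 3.11.15, pandas 2.3.3). A difference was called from 5 points of the span or 25 points of TSS ± 1 kb. Genes with a standard symbol were named by the largest differences, 8 per direction and measure (spans of at least 10 kb), at most 4 for each list, and Tet genes and genes that the study takes up; a few genes that this rule named are not reported here. Lists count annotation entries, of which a few share a symbol. The gene lists, members and rules were chosen with earlier results of these data known. Scripts were tested on simulated peaks. Alternatives were 17000, 66000 or all peaks, a score of at least 80, equal bp covered, 1 kb around each midpoint, no chromosome 8, the shGFP library in place of ESC, TSS ± 2 kb and spans of at least 10 kb.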

Additional observations from a re-analysis of the deposited data

How the results depend on the processing

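No paired analysis was possible because each cell type has 1 library, and for the same reason no library could be left out. The promoter difference kept its direction under every alternative run, and the span difference under all except the shGFP library, where 3110 genes were higher in ESCs and 3692 in brain. Peak lists give no depth, so a bare gene may be one below detection.

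The counts of spans higher in ESCs and in brain were 6871 and 4457 with all nuclear peaks and 10590 and 896 with a score of at least 80. The second was 1650 with 1 kb around each midpoint, and the first 2842 among spans of at least 10 kb, where fewer genes are tested. Promoters higher in ESCs and in brain numbered 916 and 223 with 17000 peaks, 2259 and 638 with 66000, 3598 and 946 with all and 4640 and 197 with a score of at least 80, and those of brain 233 with 1 kb around each midpoint and 649 with TSS ± 2 kb. The percent of promoters under a peak in ESCs and in brain was 6.33 and 2.85 with 17000 peaks, 17.45 and 9.93 with 66000, 31.92 and 20.01 with all, 8.24 and 3.44 with 1 kb around each midpoint and 15.47 and 9.32 with TSS ± 2 kb. It was 31.92 in ESCs with a score of at least 80 and 4.99 in brain at equal bp.

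Of list means past 2 points of span or 5 of the TSS window, 13 values changed sign among 342, and of named-gene differences past the thresholds, 35 among 2016. The cause was not tested. With the shGFP library, the mean ESC minus brain difference over spans was −1.01 points for sodium and calcium channels, −1.39 for postsynaptic scaffolds, −4.67 for Tet, Dnmt and base excision genes, −0.89 for collagens and laminins and −0.93 for proteasome subunits, and the gene differences were −7.58 for Grin3b, −13.49 for Pcgf2, 10.34 for Tbx4, −10.40 for Tbx6 and 17.20 for Phox2a. With a score of at least 80, list means were 7.17 for the TSS windows of sodium and calcium channels and, over spans, 6.51 for axon guidance, 9.32 for astrocyte and 0.20 for ribosomal protein genes. Genes then gave, over spans, 7.64 for Esam, 12.12 for Gabrd, 17.82 for Gabbr1, 4.22 for the shorter Scn8a entry, 5.51 for Nfasc, 1.66 for Kif1a, 18.84 for Dnmt3a, 12.15 for Tdrd1, 24.55 for Tbx4, 17.96 for Phox2a and 1.92 for Gdf2, and, at the TSS window, 23.85 for Il4ra and 0.70 for Scn8a. With all peaks the TSS window gave 23.85 for Il4ra, 0.70 for Scn8a and −0.65 for Pax8, and spans 12.12 for Gabrd, 10.06 for Gabbr1, −3.96 for Laptm5, 19.43 for Tbx4, −12.57 for Mesp2, 17.96 for Phox2a and −3.05 for Psmb6. With 66000 peaks, list means were 0.28 for the TSS windows of sodium and calcium channels and 0.02 for spans of astrocyte genes, and genes gave 7.54 for Gabbr1, 4.22 and (TSS window) 0.70 for Scn8a and 4.50 for Tbx4. With 17000 peaks Scn8a gave 7.90 and Tbx4 1.82, with 1 kb around each midpoint Pold1 gave −6.21 and astrocyte genes 0.19, and over spans of at least 10 kb the 4 ribosomal protein genes left gave 0.97.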

Other observations

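Some genes differed in opposite directions at the promoter and over the span. The promoter was called higher in ESCs and the span higher in brain in 78 genes, and the reverse held in 44. Tdrd1, of the piRNA pathway, had 95.2% of its promoter window covered in ESCs and 0 in brain, but 5.47% of its span in ESCs and 13.4% in brain. Nkx6-2, a homeobox factor of the central nervous system, had 36.7% of the window in ESCs and 0 in brain, while its span had 0 in ESCs and 57.9% in brain. Tbx4, a T-box factor of the hindlimb, had 77.0% and 0 at the window and 10.6% and 19.9% over the span, although in the shGFP library its span had 30.3%.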
